A study of Mus musculus with 12 samples.

Results

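The nuclear genes of the oxidative phosphorylation complexes were examined in a table of RNA sequencing values for mouse haematopoietic stem and progenitor cells. They were taken as the rows whose symbol begins with Nduf, Uqcr, Atp5, Cox4, Cox5, Cox6, Cox7 or Cox8, or is Sdha, Sdhb, Sdhc or Sdhd, without pseudogenes and with a value above 0 in at least 1 of 12 libraries. This gave 64 members of 38924 entries, of which 24388 were above 0 in at least 1 library. The marrow came from male C57BL/6 mice of 4 to 5 weeks, and cells with CD45R, CD11b, CD3e, Ly-6G or TER119, proteins of maturing blood lineages, had been removed with magnetic beads. The naive group held 6 libraries (replicates 1, 2, 3, 7, 8 and 9) of cells that were not injected. The brain-recovered group held 6 libraries (replicates 4, 5, 6, 10, 11 and 12) of cells injected intravenously into mice 24 h after their brain had lost and regained its blood flow (ischaemia and reperfusion, a stroke model), and isolated from that brain 24 h later. The labels name no transgene and do not say how injected cells were told apart from cells of the brain. They also do not say whether the libraries of a group came from separate animals or cultures, so the spread between these libraries may be technical. The p-values rest on that spread as pooled over entries of like abundance, not on each gene's own. The comparison asks what sets cells taken back from the injured brain apart from cells that were never injected.

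Oxidative phosphorylation makes ATP in mitochondria. Complex I (the Nduf genes) and complex II (Sdha to Sdhd, also an enzyme of the tricarboxylic acid cycle) pass electrons from nutrients to ubiquinone, complex III (the Uqcr genes) hands them to cytochrome c, and complex IV (the Cox genes) gives them to oxygen. The proton gradient that this builds drives complex V, the ATP synthase (the Atp5 genes). Most subunits are encoded in the nucleus and a small core is encoded by mitochondrial DNA. Haematopoietic stem cells at rest are known to rely largely on glycolysis, and to use oxidative phosphorylation more when they cycle or differentiate.

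The labels of the table had to be checked first, because in stretches of the table the values stand beside the wrong symbol. Values above 0 step in whole reads over 1 length per row, so the row's length in bases could be recovered from them and compared with the labelled gene's exons (GENCODE M21, GRCm38). The row had exactly the length of its labelled gene in 27 of the 64 members. In a further 18 the length differed, but at least 50% of the checked rows nearest in alphabetical order had the length of their labelled gene, and these members are reported under their label with that limit. Together these are 45 members with a label borne out, 4 of complex II, 8 of complex III, 17 of complex IV and 16 of complex V. Of all 21538 checked entries, 10192 (47.3%) had the length of their labelled gene.

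None of the 19 members with an Nduf symbol had the length of its gene. None of the 14 to 28 checked neighbours of each had theirs either. No value is therefore reported here for any complex I gene by name. As rows of unknown gene, 18 of the 19 were tested, none was called and their median log2 difference (brain-recovered minus naive, as below) was 0.29. Of 45 Nduf symbols in the table, the other 26 stood beside rows that were 0 in all libraries.

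**Figure D1:**
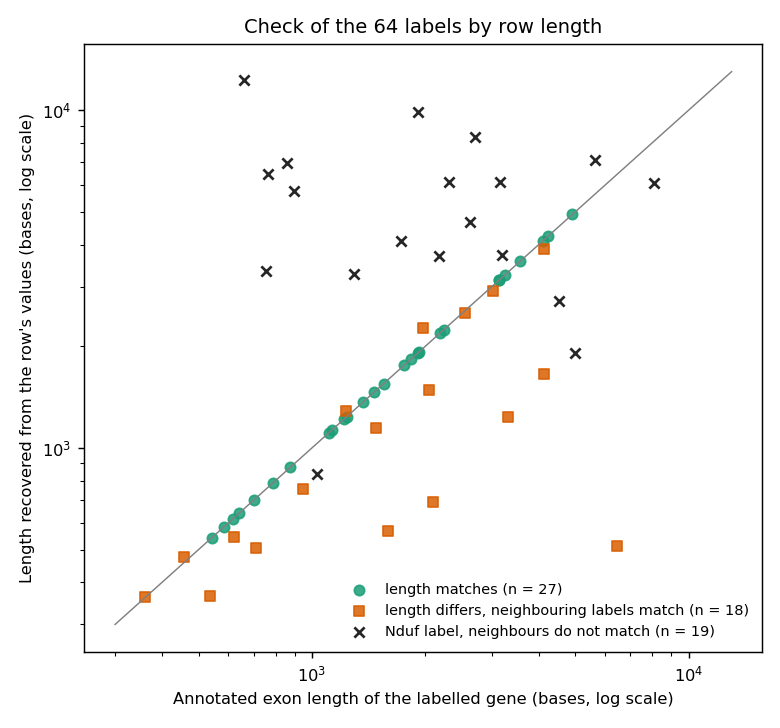
Length of each member's row as recovered from its values against the annotated exon length of the labelled gene, both in bases on log axes, with the line of equality. The 27 circles lie on the line, 18 squares lie near or below it, and the 19 crosses, all labelled Nduf, are scattered off it.

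RefSeq promoter windows (build GRCm38.p6, 250 bases before to 50 after the start) were found for 33 of the 45 members, 36 windows in all. Nuclear respiratory factor 1 (NRF1), the ETS factor GABPA and YY1 are known regulators of these genes, and Sp1 is a general promoter factor. Searched on both strands, the NRF1 letters GCGCATGCG stood in 13.9% of the members' windows and in 1.75% of all 32851 windows in the table. The ETS letters CCGGAAG stood in 33.3% of the members' windows and in 8.86% of all windows. The YY1 letters AAGATGGCG stood in 5.56% against 1.40%. The Sp1 letters GGGCGG stood in 30.6% against 35.7%. None of these 4 motifs contains another, and a match of letters is a description of the sequence and not a binding site. The window of Atp5a1, which had the largest complex V difference, is not reported here. The windows of Cox6a1 and Uqcr11 are shown because these genes had the largest differences among the complex IV and complex III members of matching length, and that of Atp5b because it encodes the catalytic subunit of the ATP synthase. Each is printed 5′ to 3′ on the gene's own strand, with the letters of the 4 motifs (either strand) in capitals.
Cox6a1 (chr5:115348909-115349208, minus strand): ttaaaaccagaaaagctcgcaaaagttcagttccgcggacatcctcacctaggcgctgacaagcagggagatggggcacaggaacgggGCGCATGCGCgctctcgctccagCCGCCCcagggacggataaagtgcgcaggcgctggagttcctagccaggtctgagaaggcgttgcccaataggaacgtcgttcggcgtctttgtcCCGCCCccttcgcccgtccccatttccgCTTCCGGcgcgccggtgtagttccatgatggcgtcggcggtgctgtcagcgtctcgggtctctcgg
Uqcr11 (chr10:80406772-80407071, minus strand): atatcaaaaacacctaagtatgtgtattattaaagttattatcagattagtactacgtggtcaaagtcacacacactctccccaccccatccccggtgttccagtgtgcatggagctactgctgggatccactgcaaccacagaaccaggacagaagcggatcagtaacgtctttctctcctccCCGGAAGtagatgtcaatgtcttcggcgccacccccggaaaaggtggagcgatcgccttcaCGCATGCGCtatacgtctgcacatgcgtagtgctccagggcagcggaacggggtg
Atp5b (chr10:128083057-128083356, plus strand): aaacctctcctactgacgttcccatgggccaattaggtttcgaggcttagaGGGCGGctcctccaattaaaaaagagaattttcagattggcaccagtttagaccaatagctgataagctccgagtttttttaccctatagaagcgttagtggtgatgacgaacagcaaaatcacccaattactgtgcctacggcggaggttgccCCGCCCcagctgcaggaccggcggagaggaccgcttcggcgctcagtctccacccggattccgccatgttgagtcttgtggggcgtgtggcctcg
The Cox6a1 window holds NRF1, ETS and Sp1 letters, the Uqcr11 window NRF1 and ETS letters, and the Atp5b window Sp1 letters only.

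The libraries differed strongly in depth. The reads recovered from the values came to 654419 to 2629285 per naive library and 1129514 to 13437150 per brain-recovered library. Naive libraries 1, 2 and 3 and brain-recovered library 12 had only 4380 to 7164 entries above 0, against 12066 to 23184 in the other 8, and are called sparse here. The authors' scaling constant corresponds to 499361 to 1515539 reads and is not the total: the recovered reads were 0.627 to 3.51 times that number in naive libraries and 0.893 to 17.9 times in brain-recovered ones. Values are therefore set higher, for the same share of reads, in libraries such as brain-recovered 6 (17.9 times) and 10 (15.5 times). Even the row labelled Gapdh, a gene that every cell uses, was listed at 0 in some libraries. Whether that label is borne out is not given here, and every 0 below is only a listed value. Among the markers of progenitors, Kit stayed between 0 and 13.9 and Cd34 between 0 and 23.7 in all 12 libraries. Ly6a, which encodes Sca-1, was 35095 in brain-recovered library 6 and at most 37.9 elsewhere, and Myb was 1335 in brain-recovered library 11 and at most 21.1 elsewhere. The row lengths of these 4 genes differed from the annotated ones, and the label Ptprc was not borne out. Oligodendrocyte markers (5 genes, Mbp, Mog, Mag, Mobp and Cnp) summed to 13.1 to 81.7 in naive libraries and to 5558, 7070 and 21330 in brain-recovered libraries 4, 5 and 6, but to 37, 279 and 52.8 in libraries 10, 11 and 12. Mbp (4239 and 5174) and Mobp (1271 and 1854) gave nearly all of the sums in libraries 4 and 5. Mog, Mag and Cnp were at most 18.8 there, and in library 6 all but Mog (4.71) were high. Only Cnp had a row of matching length. The microglial and macrophage markers summed to 21209 in brain-recovered library 10, nearly all C1qa and C1qb, and to 1.15 to 92.5 in the other brain-recovered libraries, with P2ry12 listed at 0 throughout. Brain-recovered libraries that hold RNA of brain cells and injected cells whose own RNA changed cannot be told apart in bulk values, and neither can fewer cells of a type and less RNA per cell.

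With these limits, members of complexes II to V were mostly at low values in the naive libraries, and 23 of the 45 exceeded a value of 100 in at least 1 brain-recovered library, 10 of them in 1 library only. Differences were tested with limma on log2(value + 1) over the 17689 entries that reached 1 in 6 or more libraries, and p-values were adjusted by Benjamini-Hochberg at a threshold of 0.05. Of the 45 members with a label borne out, 31 passed this filter. Cox6a1 and Atp5a1 rose in the brain-recovered libraries and no member fell. Over all entries tested, 0.367% were called higher and none lower, with 0.175% lower at an unadjusted p under 0.05 (no member). The median log2 difference, brain-recovered minus naive, was 1.56 over the 31 members and 0.64 over all entries. The difference was above 0 in 30 of the 31 members and in 74.5% of all entries, and in 25 of the 31 under either quantile normalization (47.1% of all entries) or scaling to the library total (40.8%). At an unadjusted p under 0.05, 8 of the 31 members (25.8%) were higher, against 6.08% of all entries. No member was without overlap between the groups, against 0.147% of all entries without overlap and higher in the brain-recovered group and 0.0226% lower. In 2 of the 31 members (6.45%), Cox6a1 and Atp5a1, at least 5 brain-recovered libraries lay above every naive library, against 1.75% of all entries.

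**Figure D2:**
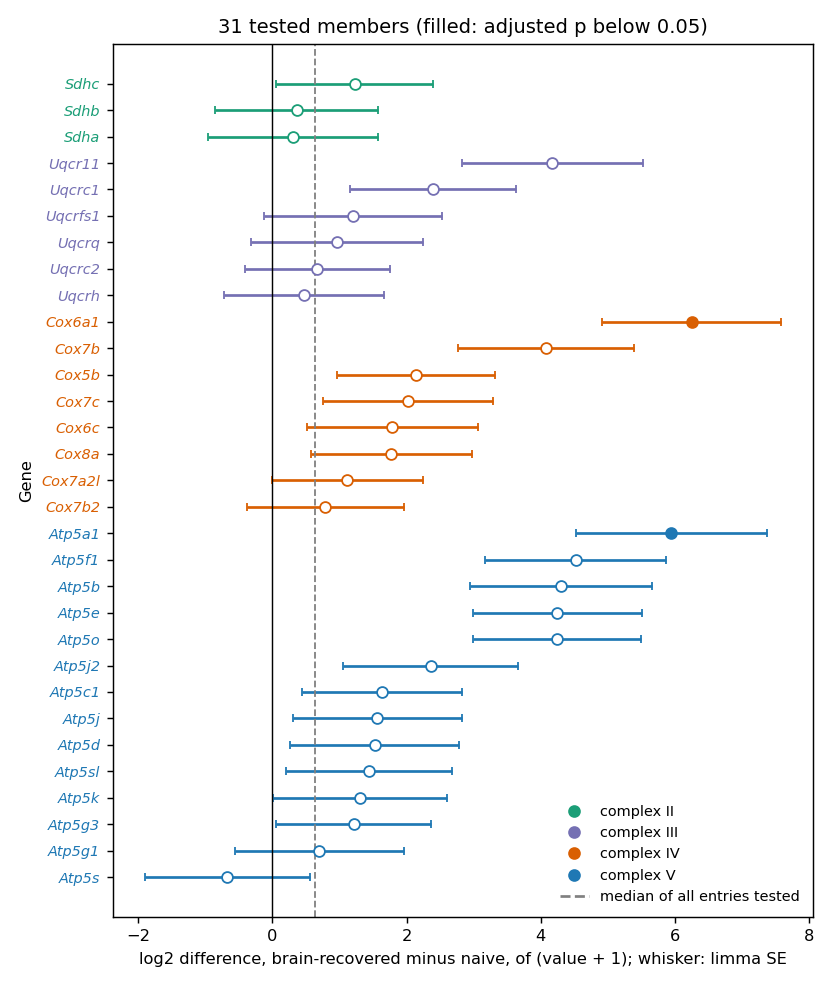
Difference of mean log2(value + 1), brain-recovered minus naive, for the 31 tested members, grouped by complex, with the limma SE as whisker. Cox6a1 (6.25) and Atp5a1 (5.95) are filled because they passed the threshold, and Atp5s (-0.67) is the single member left of 0; the dashed line is the median over all entries (0.64).

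These counts depended on a few libraries. Without brain-recovered library 12, 8 of the 31 members were called (Cox6a1, Atp5a1, Atp5b, Atp5e, Atp5f1, Atp5o, Cox7b and Uqcr11), with 1.29% of all entries called higher. Without the 4 sparse libraries no member was called by limma, 7 of 40 tested were higher at an unadjusted p under 0.05 (2.24% of all entries), and 0.00932% of all entries were called higher. In that setting the median over the members with a label borne out was 1.04, against -0.06 over all entries, and the difference was above 0 in 30 of the 40, against 48.0% of all entries. In libraries 1 to 6 alone 15 of 33 tested members were called, where 37.8% of all entries were. In libraries 7 to 12 alone none of 36 was called and the direction of the median turned. It was -0.63 over these members and -1.09 over all entries, and the difference was above 0 in 14 of the 36 members and in 22.6% of all entries. At an unadjusted p under 0.05, 6 of the 36 were higher and 1 was lower there, against 0.900% and 4.10% of all entries. In libraries 1 to 6 alone 22 of the 33 members were without overlap and higher in the brain-recovered group and none was lower, against 44.7% and 0.239% of all entries. In libraries 7 to 12 alone 1 of the 36 was without overlap and higher and 3 were lower, against 0.970% and 10.5%. Without the sparse libraries 1 of the 40 was without overlap and higher and none was lower, against 1.57% and 1.99%.

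High values were counted at a limit of 100, chosen after the values were seen. Of the 270 values of the 45 members in each group, 3 exceeded 100 in naive libraries (1.11%) and 41 in brain-recovered libraries (15.2%). Over all entries above 0 these shares were 0.776% and 2.42%. Of the 45 members, 23 (51.1%) exceeded 100 in at least 1 brain-recovered library, against 11% of all entries, and 3 (6.67%) in at least 1 naive library, against 3.92%. The high values lay in different libraries: 10 members exceeded 100 in 1 brain-recovered library, 9 in 2, 3 in 3, 1 in 4 and none in 5 or 6. Over all entries 2149 exceeded 100 in 1 brain-recovered library, 351 in 2, 94 in 3, 37 in 4 and 47 in 5 or 6. A high value was thus confined to 1 library in 10 of 23 such members and in 2149 of 2678 such entries, a smaller share of the members. By library, 6, 9, 12, 10, 4 and 0 members exceeded 100 in brain-recovered libraries 4, 5, 6, 10, 11 and 12. The members' share of all recovered reads, which does not depend on the authors' scaling constant, was 0.00361% to 0.182% in naive libraries. It was 0.128%, 0.336%, 0.414%, 0.835%, 0.225% and 0.0428% in brain-recovered libraries 4, 5, 6, 10, 11 and 12. The groups overlapped, with naive library 3 (0.182%, nearly all Atp5k) above brain-recovered libraries 4 and 12. The share does depend on what else was counted. The predicted genes Gm10800, Gm10801, Gm10715 and Gm21738 together held 11.2% to 69.1% of the reads of naive libraries. They held 3.47% to 44.8% of those of brain-recovered libraries, least in libraries 6 and 10.

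**Figure D3:**
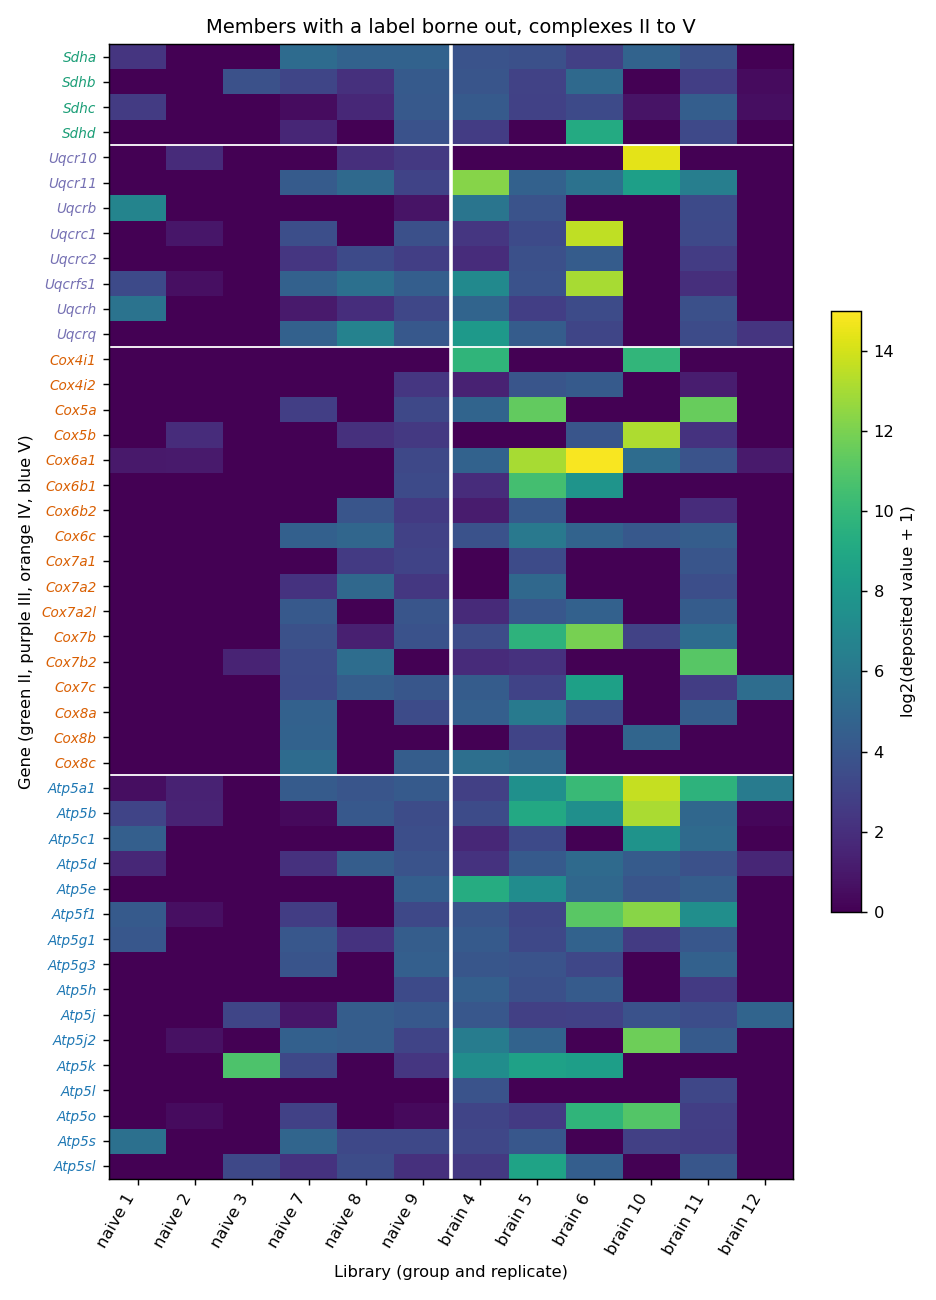
log2(deposited value + 1) of the 45 members (rows, grouped by complex) in the 12 libraries (columns, naive on the left). Dark columns are the sparse libraries naive 1, 2 and 3 and brain-recovered 12, and the bright cells, such as Uqcr10 in brain-recovered library 10, differ from library to library.

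Complex II, succinate dehydrogenase, had the lowest median difference of the 4 complexes (0.36). None of its 3 tested subunits was called, and their log2 differences ran from 0.31 to 1.23. Sdhb, the iron-sulphur subunit (log2 difference 0.36 ± 1.22, limma SE, adjusted p = 1), had values of 0, 0, 12.3, 7.76, 3.19 and 17.7 in naive libraries 1, 2, 3, 7, 8 and 9. It had 14.7, 6.83, 34, 0, 6.02 and 0.353 in brain-recovered libraries 4, 5, 6, 10, 11 and 12. The groups overlapped over nearly their whole range, and the sign of the Sdhb difference turned under scaling to the library total (-0.65). Sdhc, a membrane anchor (1.23 ± 1.17, adjusted p = 0.967), lay between 0 and 17.1 in naive and between 0.487 and 21.7 in brain-recovered libraries. Sdha, the flavoprotein, reached 36.8 in naive library 7 and 26.7 in brain-recovered library 10, and its row was shorter than the annotated gene. Sdhd, the other membrane anchor, whose row length differed, was not tested and stood at 576 in brain-recovered library 6 and at most 12.8 elsewhere. That single value was the only complex II value above 100.

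In complex III, the cytochrome bc1 complex, none of 6 tested members was called and all 6 differences were above 0, with a median of 1.08. Uqcr11, a small supernumerary subunit, had the largest difference among members of matching length (4.17 ± 1.35, adjusted p = 0.234). Its values were 0, 0, 0, 18.8, 33.4 and 7.21 in naive libraries 1, 2, 3, 7, 8 and 9 and 4860, 23.9, 50, 350, 85.8 and 0 in brain-recovered libraries 4, 5, 6, 10, 11 and 12. Brain-recovered libraries 4, 6, 10 and 11 were thus above every naive library, while library 5 was within the naive range and library 12 was at 0. Uqcrfs1, the Rieske iron-sulphur protein, exceeded 100 in brain-recovered library 6 (8331) and library 4 (136) and was 0 in libraries 10 and 12, against at most 44.6 in naive libraries (1.20 ± 1.33, adjusted p = 0.98). Its sign turned under scaling to the library total (-0.26). Uqcrq, another small subunit, was 266 in brain-recovered library 4 and 101 in naive library 8 (0.96 ± 1.28, adjusted p = 0.986; -0.12 with quantile normalization). Uqcrc1, a core protein whose row length differed from that of the gene, stood at 11969 in brain-recovered library 6 alone and at most 11.6 in any other library. Uqcr10, also a small subunit, stood at 21704 in brain-recovered library 10 and at 0 in the other 5 brain-recovered libraries. That value rests on 11021 reads, against 0 to 4 reads per naive library. Different complex III subunits were therefore high in different libraries, Uqcr11 in library 4, Uqcrc1 and Uqcrfs1 in library 6 and Uqcr10 in library 10.

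Complex IV, cytochrome c oxidase, held the larger of the 2 called differences. Cox6a1, the widely expressed isoform of subunit 6a, a regulatory subunit, had values of 1.02, 1.08, 0, 0, 0 and 8.46 in naive libraries 1, 2, 3, 7, 8 and 9. In brain-recovered libraries 4, 5, 6, 10, 11 and 12 it had 25.4, 8507, 29154, 37.7, 13.3 and 1.13. All brain-recovered libraries but library 12 lay above every naive library, and libraries 5 and 6 stood far above the rest, with 6636 and 10220 reads. The log2 difference was 6.25 ± 1.34 (limma SE, n = 6 per group), with an adjusted p of 0.00386. This SE and p rest on the spread of entries of like abundance, not on that of Cox6a1 itself. The adjusted p rose to 0.0809 without brain-recovered library 5 and to 0.0992 without library 6. Under scaling to the library total the difference was 4.86 with an adjusted p of 0.647.

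Cox7b, a small subunit needed for assembly, had values of 0, 0, 0, 12.1, 1.47 and 13 in naive libraries and 10.2, 813, 3807, 6.63, 38.5 and 0 in brain-recovered libraries, in the same order (4.08 ± 1.31, adjusted p = 0.223). Like Cox6a1 it was highest in brain-recovered libraries 5 and 6. Cox6b1, a subunit facing the intermembrane space whose row length differed, also exceeded 100 in those 2 libraries (1442 and 214). Cox7c was 370 in brain-recovered library 6 and at most 39.9 in any other library (2.02 ± 1.27, adjusted p = 0.914). Cox5a, which like Cox5b is a nuclear subunit of the matrix side, reached 2713 in brain-recovered library 5 and 2890 in library 11, and Cox5b reached 8969 in library 10. The rows of both were shorter than the annotated genes. Both labels of the subunit 4 isoforms matched by length. Cox4i1, the general isoform, was listed at 0 in 10 libraries and stood at 915 and 942 in brain-recovered libraries 4 and 10. Cox4i2, the isoform induced by low oxygen, was low throughout, at most 4.19 in naive and 17.8 in brain-recovered libraries. Only Cox4i1 was thus high in any library, and the 17.8 of Cox4i2 rests on 7 reads. Neither isoform passed the filter for the test. Cox7b2, described mainly from testis, was 2201 in brain-recovered library 11 and at most 39.5 elsewhere.

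Complex V held the second called gene and the most values above 100, 20 in brain-recovered libraries and 1 in naive libraries. The 20 include the value of Atp5sl in brain-recovered library 5 (416), a gene counted here by its symbol only. Atp5a1, the alpha subunit of the catalytic head, had values of 0.455, 1.69, 0, 18.8, 14.2 and 18.1 in naive libraries 1, 2, 3, 7, 8 and 9. In brain-recovered libraries 4, 5, 6, 10, 11 and 12 it had 6.13, 183, 1142, 13094, 843 and 75.4. Brain-recovered library 4 lay within the naive range and the other 5 lay above it, library 12 included. The log2 difference was 5.95 ± 1.42 (limma SE, n = 6 per group), with an adjusted p of 0.0125. As for Cox6a1, this SE and p do not reflect the gene's own spread. The call was lost when naive library 1 (adjusted p = 0.092), 3 (0.0708) or 9 (0.0558) or brain-recovered library 10 (0.0889) or 11 (0.0802) was left out. Under scaling to the library total the difference was 4.76 with an adjusted p of 0.718.

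Atp5b, the catalytic beta subunit that alternates with alpha in the head, had values of 7.58, 1.78, 0, 0.315, 16.4 and 10.3 in naive libraries and 9.73, 536, 178, 8905, 31.6 and 0.187 in brain-recovered libraries (4.30 ± 1.36, adjusted p = 0.201). Its value, like that of Atp5a1, was highest in brain-recovered library 10, where the 2 rows held 32808 and 35693 reads. Brain-recovered libraries 5, 6, 10 and 11 were above every naive library, and libraries 4 and 12 were within the naive range. Atp5f1, subunit b of the stalk that holds the head, was 2273 in library 6, 5257 in library 10 and 170 in library 11, against at most 18.2 in naive libraries (4.52 ± 1.35, adjusted p = 0.135). Atp5o, part of the same stalk, reached 894 in library 6 and 1991 in library 10, with a row length that differed from the annotated one. These 4 subunits of the head and stalk were therefore all high in libraries 6 and 10. Atp5c1, the gamma subunit of the central shaft, exceeded 100 in library 10 only (210). Atp5d, the delta subunit of the shaft, lay between 2.05 and 35.3 in the brain-recovered libraries, against 0 to 20.4 in naive ones.

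Other members counted with complex V were high in other libraries, or in library 10 alone, or stayed low. Atp5j2, a membrane subunit whose row length differed, was 3262 in library 10, on 3491 reads, and at most 77 in the other brain-recovered and 22.8 in naive libraries (2.36 ± 1.30, adjusted p = 0.86). Atp5e, the epsilon subunit of the shaft, was highest in brain-recovered library 4 (634) and library 5 (159), with 21.8 in naive library 9 and 0 in the other naive libraries. Atp5k, also a membrane subunit, was 165, 380 and 335 in brain-recovered libraries 4, 5 and 6 but 1783 in naive library 3, the highest naive value of any of the 45 members. Atp5g1 and Atp5g3, which both encode the c subunit of the rotor, stayed at or below 25.7 in every library. Atp5s, the one tested member with a difference below 0 (-0.67 ± 1.23, adjusted p = 0.992), was at most 45.1 in naive and 15.8 in brain-recovered libraries. Its row length differed from the annotated one. Atp5sl is named Dmac2 in the annotation, where it is known as a complex I assembly factor, so it is a member by its symbol only.

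**Figure D4:**
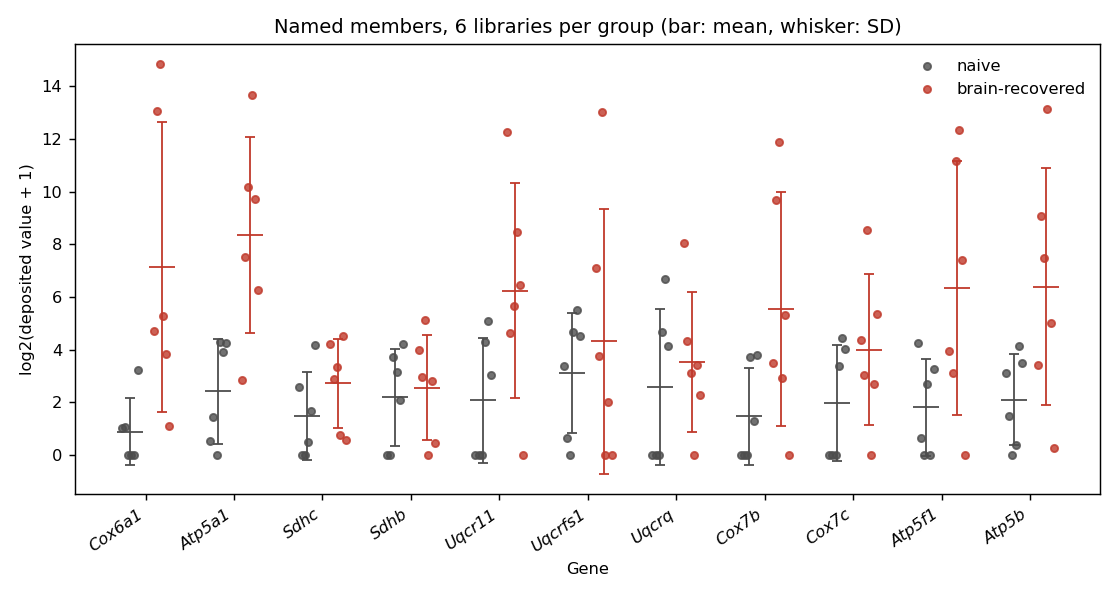
log2(deposited value + 1) of 11 members in 6 naive and 6 brain-recovered libraries (points), with the mean and SD of each group. Cox6a1 and Atp5a1 each have 5 of 6 brain-recovered libraries above every naive library, and for Sdhb, Sdhc, Uqcrq and Uqcrfs1 the groups lie largely over each other.

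Reads that fit a processed pseudogene as well as its gene could be counted to either, and mouse has many such copies of these genes. How such reads were counted is not given in the sources used here, and the library kit does not mark strand, so reads of overlapping antisense genes cannot be told apart.

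Genes that work with the complexes were taken from lists of other parts of mitochondrial metabolism. None was called in any of them. Of 14 electron carriers and exchangers of ATP and phosphate, 11 were tested, 3 were higher at an unadjusted p under 0.05 and their median difference was 1.56. Slc25a3, the phosphate carrier, stood at 3274 and 10213 in brain-recovered libraries 6 and 10 and at most 83 in naive libraries. Slc25a5, an ADP/ATP exchanger, was 33107 in brain-recovered library 10 but 2452 in naive library 1. Of 30 assembly factors of complexes II to V with a label borne out, 22 were tested, 2 were higher at an unadjusted p under 0.05 and the median was 0.77. Of 16 genes of the tricarboxylic acid cycle and pyruvate dehydrogenase, all were tested, 2 were higher at that level and the median was 1.11. Mdh2, malate dehydrogenase of the mitochondrion, reached 4253, 6667 and 595 in brain-recovered libraries 4, 10 and 11 (4.79 ± 1.38, adjusted p = 0.109). Its row length differed from the annotated one. Of 13 regulators of mitochondrial genes with a label borne out, 11 were tested, 1 was higher at that level and the median was 0.59, below that of all entries. In each of the 4 lists the share at an unadjusted p under 0.05 can be set beside the 6.08% of all entries.

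Markers of other cells moved in some of the same libraries. Mpo and Elane, granule enzymes of myeloid progenitors, were the 2 called genes among the markers, Mpo with a row of matching length and Elane with a row whose length differed. Mpo stood at 7677, 4808 and 1318 in brain-recovered libraries 6, 10 and 11, and Elane at 17187 and 65623 in libraries 6 and 10. The 9 progenitor markers together summed to 43.9 to 82.3 in naive libraries and 48.4 to 70488 in brain-recovered ones, with 60018 in library 6, of which Ly6a gave 35095, and 70488 in library 10. The sums of the oligodendrocyte markers, given above, were high in libraries 4, 5 and 6 and low in libraries 10 and 12. In libraries 4 and 5 only Mbp and Mobp were high. Endothelial markers (6 genes) summed to 14413 in library 6 and 6520 in library 10 and to 1.9 to 82.5 in the other brain-recovered libraries. None of these 6 genes had a row of matching length. Ly6c1 gave 13010 and 6464 of the sums in libraries 6 and 10. Cdh5 was 1309 in library 6 and at most 41.8 in any other library. Cldn5, Pecam1, Flt1 and Kdr were at most 45.3 in library 6. In library 10 Cldn5 and Cdh5 were listed at 0, and Pecam1 and Kdr stood at 30.1 and 22.4. Neuronal markers (5 genes, Tubb3 listed at 0) summed to 0 to 97.4 in naive and 0.284 to 377 in brain-recovered libraries. Astrocyte markers (5 genes, Gfap listed at 0) summed to 25 to 87.3 in naive libraries. Their sums were 1049, 224, 2176, 109, 116 and 5.25 in brain-recovered libraries 4, 5, 6, 10, 11 and 12. Slc1a2 was 182, 121 and 2096 in libraries 4, 5 and 6, and Slc1a3 was 799 in library 4, both with rows of matching length. Aqp4, Aldoc and Gja1 were at most 49.6 in brain-recovered libraries. Markers of the lineages removed by the beads (8 genes) summed to 0 to 73.1 in naive and 0.124 to 10725 in brain-recovered libraries. Of these Itgam, whose row length differed, stood at 10707 in library 10. In that library the complex V members had their highest sum (32777), the microglial and macrophage markers summed to 21209 and the oligodendrocyte markers to 37. Of the 21209, C1qa gave 19416 and C1qb 1764. The other markers of that list were low there, with C1qc, Cx3cr1 and Tmem119 listed at 0 and Csf1r at 29.4. The part of other cell types in the members' differences was not tested.

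The subunits encoded by mitochondrial DNA could not be read by their labels. Of the 13 symbols, 4 stood beside rows at 0 in all libraries and 9 beside rows whose length did not match. Rows with the lengths of these genes were nevertheless present under other symbols. Of 38924 entries, 19 exceeded 100 in every library, a limit chosen after the values were seen. Of these, 7 had a label borne out. Each of the other 12 had exactly the length of a different one of the 13 protein genes of mitochondrial DNA. Of the 12, 11 carry a symbol, and by this selection none of them had the length of its own labelled gene. These 11 stand in the order of those 12 genes when both are sorted alphabetically with hyphens left out. The rows labelled Mt1, Mt2, Mt3 and Mt4, the symbols of the metallothioneins, had 681, 204, 1545 and 684 bases, the lengths of mt-Atp6, mt-Atp8, mt-Co1 and mt-Co2. The annotated exon lengths of the metallothionein genes are 1246, 588, 1066 and 398 bases. The rows labelled Mta1, Mta2, Mta3, Mtag2 and Mtap had the lengths of mt-Co3, mt-Cytb, mt-Nd1, mt-Nd3 and mt-Nd4. The rows labelled mt-Atp6 and mt-Atp8 themselves had the lengths of mt-Nd5 and mt-Nd6. Each of these 12 lengths is annotated for 5 to 23 entries of the table, so a length alone does not identify a gene, and the rows are described here by their lengths.

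These 12 rows were high in both groups and higher in 5 of the 6 brain-recovered libraries. The row with the length of mt-Atp6 (labelled Mt1) had values of 8319, 925, 5156, 1078, 1568 and 3197 in naive libraries 1, 2, 3, 7, 8 and 9. It had 200689, 161329, 1068255, 529470, 120693 and 1249 in brain-recovered libraries 4, 5, 6, 10, 11 and 12. The first 5 brain-recovered libraries lay above every naive library, and library 12 lay within the naive range. The row with the length of mt-Co1 (labelled Mt3) was 855 to 2804 in naive libraries and 73153 to 363022 in brain-recovered libraries 4, 5, 6, 10 and 11, with 1280 in library 12. Over the 12 rows the median value was 795 to 2767 in naive libraries and 25407 to 257950 in those 5 brain-recovered libraries, with 1233 in library 12. Their share of all recovered reads was 0.361% to 3.13% in naive libraries. It was 14.5%, 15.9%, 21%, 15.3%, 12.7% and 1.44% in brain-recovered libraries 4, 5, 6, 10, 11 and 12. These shares too depend on the reads held by the predicted genes named above, which differed between libraries. Since the rows were picked from their values, no test is given. In brain-recovered library 12 the nuclear members too were at most 75.4, and its reads in nuclear members came to 483.

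**Figure D5:**
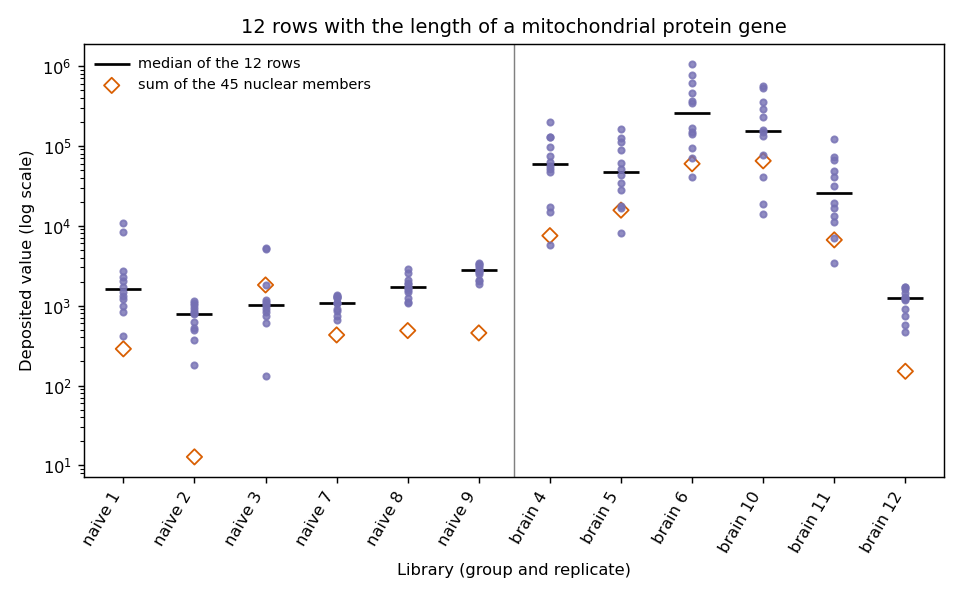
Deposited values, on a log axis, of the 12 rows with the length of a protein gene of mitochondrial DNA (points, with their median as a bar) and the sum of the 45 nuclear members (diamonds) in each library. Brain-recovered libraries 4, 5, 6, 10 and 11 stand above the naive libraries in both the median and the sum, and library 12 stands among the naive libraries.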

How the data were processed

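RNA of 12 libraries was made into cDNA directly from lysate with a low-input kit (SMARTer Ultra Low Input v3), amplified by PCR and tagged with Nextera XT for Illumina sequencing, per the labels' protocols. Trimmomatic 0.32 and the build GRCm38 are named in the submitters' processing notes; which aligner, counter and annotation were used is not given in the sources used here. A single table was deposited by the authors, with no unit in its header. Its deposited values were taken as RPKM: multiplied by a length found for the row and divided by a constant found for the library, they are whole (tolerance 0.004 of a read, slightly wider at high counts), which held for 24385 of 24388 entries above 0. Depth limits the precision of low values, and amplified reads without molecular identifiers do not count molecules.

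A label counted as borne out where the row had the exon length of the labelled gene (GENCODE M21), or where at least 25% of the checked rows among the 15 alphabetical neighbours on each side did. Checked rows have at least 4 values above 0 and an annotated length. The table held normalized values, so limma 3.58.1 (R 4.3.3; trended eBayes, 2 groups, no covariates) was used on log2(value + 1), with Benjamini-Hochberg adjustment over all entries tested; a log2 difference on this scale understates the change of low genes. The fit gave full weight to the trend of spread on abundance, so neither an SE nor a p-value reflects the gene's own spread. Genes named are those past the threshold of 0.05, up to 3 members per complex of matching length with the largest difference, and isoform pairs; others were named after their values were seen, to account for high values. A marker gene of the lists is not reported here. The members and lists were chosen with earlier results of these data known. Alternatives were a pseudocount of 0.1, other filters and scalings, limma without trend or with sample weights, and leaving out libraries. Python 3.11.15, numpy 2.4.6, pandas 2.3.3 and matplotlib 3.10.9 served the other steps.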

Additional observations from a re-analysis of the deposited data

Results flagged for a closer look

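In the naive libraries the value of Cox6a1 in replicate 9 (8.46) stood apart from the other 5 (0 to 1.08) on the log2(value + 1) scale. Its gap to the nearest value was 0.675 of the group's range, above Dixon's 95% critical value for 6 samples. Of 22 groups examined this way, 1 was marked, and chance marks about 1 in 20. The value rests on 9 reads. Without naive replicate 9 the log2 difference of Cox6a1 was 6.72, with a limma adjusted p of 0.0185.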

How the results depend on the processing

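No paired analysis was possible because the 2 groups share no replicate numbers. The counts below cover all 64 members, of which 49 were tested, 2 were called and had a median log2 difference of 1.21, and none was without overlap; 65 entries were called in all. With one library left out in turn, 1 to 8 members and 36 to 226 entries were called, the median was 0.81 to 1.62 and 0 to 1 members were without overlap. No member was called with a filter of 10 in 6 libraries (33 entries), quantile normalization (0), scaling to the library total (0), libraries 7 to 12 alone (0) or without the sparse libraries (2 entries); without the trend 115 entries were called. In libraries 1 to 6 alone 21 members and 6011 entries were called, with a median of 3.32, and 28 of 51 members were without overlap, all higher in the brain-recovered group (44.7% of all entries). In libraries 7 to 12 alone the median was -0.84 (all entries -1.09), and 6 of 55 members were without overlap, 1 higher and 5 lower (0.970% and 10.5% of all entries). Without the sparse libraries 2 of 59 were, 1 higher and 1 lower (1.57% and 1.99%). The labels name no batch behind these numbers, and the cause was not tested. Over all entries the median moved from 0.64 to -0.06 with quantile normalization and -0.29 with total scaling, where that of members with a label borne out was 0.79 and 0.65.

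Some differences that were not called turned below 0: with quantile normalization, Sdhb -0.11, Uqcrfs1 -0.25 and Uqcrq -0.12; with total scaling, Sdhb -0.65 and Uqcrfs1 -0.26; in libraries 7 to 12 alone, Sdhc -0.17, Sdhb -2.06, Uqcrfs1 -4.23, Uqcrq -3.25, Cox7b -0.20 and Cox7c -1.26; without the sparse libraries, Sdhb -0.16, Uqcrq -1.37 and Cox7c -0.22. Leaving out 1 library at a time gave Sdhb -0.15 to 0.87, below 0 without naive 1, naive 2 or brain-recovered 6, and Uqcrfs1 -0.54 to 2.06, below 0 without brain-recovered 6. The differences of Cox6a1 and Atp5a1 stayed above 0 in every setting run, but each lost its call in several.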

Other observations

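Rows with the lengths of complex I genes were found away from their labels. Among rows standing 179 or 180 alphabetical places after an Nduf symbol, 18 had exactly the length of the gene of that symbol, 14 at the first distance and 4 at the second. At any other distance within 1500 places at most 1 did. These rows carry labels from Nipal2 to Nkx6-3, their lengths are shared with other annotated entries, and no gene is named from them. They were chosen by length and place after the data were seen, so they are given as values with no test. Of the 18, 14 passed the filter and 12 of these had a log2 difference above 0, with a median of 1.50 and a range from -0.53 to 4.48. Over all entries tested 74.5% were above 0, with a median of 0.64. Of their 108 values per group, 1 exceeded 100 in naive libraries and 14 in brain-recovered libraries. Over all entries above 0 these shares were 0.776% and 2.42%. A brain-recovered value above 100 was found in 9 of the 18 rows, against 11% of all entries. The highest was 26692, in brain-recovered library 10, in the row with the length of Ndufc2. The row with the length of Ndufa1 stood at 3389 in brain-recovered library 5 and 14169 in library 10. The row with the length of Ndufb6 stood at 6467 in library 4 and 389 in library 10. As with the subunits of complexes III to V, different rows were high in different brain-recovered libraries.

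The 4 predicted genes, Gm10800, Gm10801, Gm10715 and Gm21738 were among the 7 entries above 100 in every library with a label borne out. Together they held 11.2% to 69.1% of the recovered reads of naive libraries and 3.47% to 44.8% of those of brain-recovered libraries, with the 2 lowest shares, 5.02% and 3.47%, in brain-recovered libraries 6 and 10.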
